A study of Mus musculus with 4 samples.

Results

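Open chromatin was examined at 5 genes that mark the granule neurons of the dentate gyrus: Prox1, Neurod1, Bcl11b, Calb1 and C1ql2. The members were the FAIRE-seq summits inside a window around each gene that reached about 50 kb past both gene ends on the mouse build mm9. FAIRE-seq, which isolates regulatory elements with the help of formaldehyde, recovers the DNA of fixed tissue that carries few nucleosomes, and a summit is the single base at which an enriched stretch peaks. Summits no more than 250 bp from their neighbour, whatever the library, were joined into 1 region, and a library was said to call a region when at least 1 of its summits lay there. The 5 windows covered 684 kb and held 36 regions of the 82899 in the genome, built from 73 summits. No region held more than 1 summit of the same library.

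The tissue was the dentate gyrus of C57BL6 mice around 9 weeks old, either wild type or carrying a knockout of Mbd1 (Mbd1 KO). Each group had 2 libraries by title, called WT 1, WT 2, Mbd1 KO 1 and Mbd1 KO 2 here. The genotype field of the labels contradicts the titles for 2 of them, since it calls WT 1 a knockout and Mbd1 KO 2 a wild type, so the group comparisons are given for both groupings. The sources used here do not give the type of Mbd1 allele, the number of animals in a library, or whether the 2 libraries of a group are from different animals. The lists held 38142, 46651, 56382 and 49671 summits in that order of libraries. Read depth is not known from them, and p-values measure only the spread between these libraries, which may be technical.

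Granule neurons are the principal neurons of the dentate gyrus, and in adult rodents new ones are still made there from neural stem cells. Prox1 encodes a homeobox transcription factor that sets and keeps granule neuron identity. Neurod1 encodes a basic helix-loop-helix factor needed for the maturation and survival of newborn granule neurons, and Bcl11b (also known as Ctip2) a zinc finger factor of postnatal granule neuron development. Calb1 encodes calbindin, a calcium-binding protein of mature granule neurons, and C1ql2 a secreted C1q-like protein of the mossy fibre synapses that these neurons make. The Mbd1 protein recognises methylated CpG pairs and acts in gene silencing. Whole dentate gyrus holds other neurons and glia as well, so a site open in few cells and a site weakly open in many cannot be told apart. The summit lists hold no expression values, so the genes are called granule neuron genes from that background and not from these data.

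Promoter sequences are shown because each of the 4 genes with a known strand, which leaves out Calb1, had a region next to its start. The CpG pairs, the sites that Mbd1 binds when they are methylated, are in capitals. The sequences come from RefSeq on build GRCm38.p6, run 5′ to 3′ in the direction of the gene and cover 250 bases before to 50 after an annotated start. By the approximate distances given below, the regions at Prox1, Bcl11b and C1ql2 lie past those 50 bases. At Neurod1, Bcl11b and C1ql2, however, the distance of the region is smaller than the uncertainty of the start. The sequences are those of the promoters, and whether they overlap the called regions is not known. The table matched 4 of the 5 symbols. It lists 2 starts for Prox1, of which the first listed is shown. Of these 4 genes C1ql2 lies on the plus strand and the others on the minus strand.
Prox1: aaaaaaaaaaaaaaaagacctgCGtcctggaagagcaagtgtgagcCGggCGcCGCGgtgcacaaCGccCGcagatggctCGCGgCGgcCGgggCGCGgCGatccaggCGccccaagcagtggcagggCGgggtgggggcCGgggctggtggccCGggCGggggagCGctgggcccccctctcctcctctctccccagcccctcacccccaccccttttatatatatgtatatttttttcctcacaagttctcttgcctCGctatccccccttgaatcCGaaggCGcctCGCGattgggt
Neurod1: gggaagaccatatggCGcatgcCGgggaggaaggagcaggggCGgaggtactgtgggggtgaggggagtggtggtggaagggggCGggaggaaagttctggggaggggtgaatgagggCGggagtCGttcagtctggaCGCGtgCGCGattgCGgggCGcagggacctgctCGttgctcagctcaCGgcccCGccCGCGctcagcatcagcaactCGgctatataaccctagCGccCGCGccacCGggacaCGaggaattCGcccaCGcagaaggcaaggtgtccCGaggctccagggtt
Bcl11b: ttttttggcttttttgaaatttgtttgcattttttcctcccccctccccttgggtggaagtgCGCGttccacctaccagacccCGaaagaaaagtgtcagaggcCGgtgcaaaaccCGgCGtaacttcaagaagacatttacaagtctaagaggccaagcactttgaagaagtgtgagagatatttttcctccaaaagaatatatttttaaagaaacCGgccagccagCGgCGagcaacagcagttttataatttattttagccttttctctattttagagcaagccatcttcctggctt
C1ql2: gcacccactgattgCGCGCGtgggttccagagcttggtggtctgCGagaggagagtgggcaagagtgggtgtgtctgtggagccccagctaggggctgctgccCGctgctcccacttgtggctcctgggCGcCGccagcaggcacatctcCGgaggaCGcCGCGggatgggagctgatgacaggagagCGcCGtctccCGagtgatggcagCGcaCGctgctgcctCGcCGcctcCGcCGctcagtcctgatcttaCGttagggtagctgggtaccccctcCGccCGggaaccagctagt

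These promoters differed in CpG content. Neurod1 had 26 CpG pairs, the first listed Prox1 promoter 25 and C1ql2 23. The median over the 32851 promoters of the table was 7 (quartiles 3 and 20). Bcl11b had 9. Their GC content was 66.7%, 64.3%, 67.3% and 43.0% in the same order of genes, against a median of 52.7%. The E-box CANNTG is the core that basic helix-loop-helix factors bind. It was found 2 times in the first listed Prox1 promoter, 1 time each in those of Neurod1 and C1ql2 and not in that of Bcl11b. That motif reads the same on both strands and was present in 72.3% of all promoters. The form CAGATG is contained in the E-box and was searched on both strands. Among the 4 promoters shown it was found in the first listed Prox1 promoter only, and it was present in 17.2% of all promoters. The second listed Prox1 promoter differed from the first, with 14 CpG pairs, 57.3% GC, 0 E-boxes and 0 CAGATG. Whether the CpG pairs were methylated was not measured.

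The positions of the summits are given in mm9. No mm9 annotation was used, so the gene itself was taken as the window without 50 kb at each side, called the gene span below. The spans exceeded the RefSeq gene lengths by 207 bp for Prox1, 1000 bp for Neurod1, 1257 bp for Bcl11b, 554 bp for Calb1 and 2407 bp for C1ql2, and a distance to a gene start is uncertain by at least about that much. Distances are counted from the end of the span where the gene starts. For Calb1, whose strand the table does not give, they are counted from the end with the lower coordinate. The base of a promoter at which a summit lies is therefore not known. Strength is given as the score percentile, the share of the summits of the same library that scored lower, with ties counted by their mean rank. The score itself is the authors' and was read as a −log10 p or q from the peak caller.

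**Figure D1:**
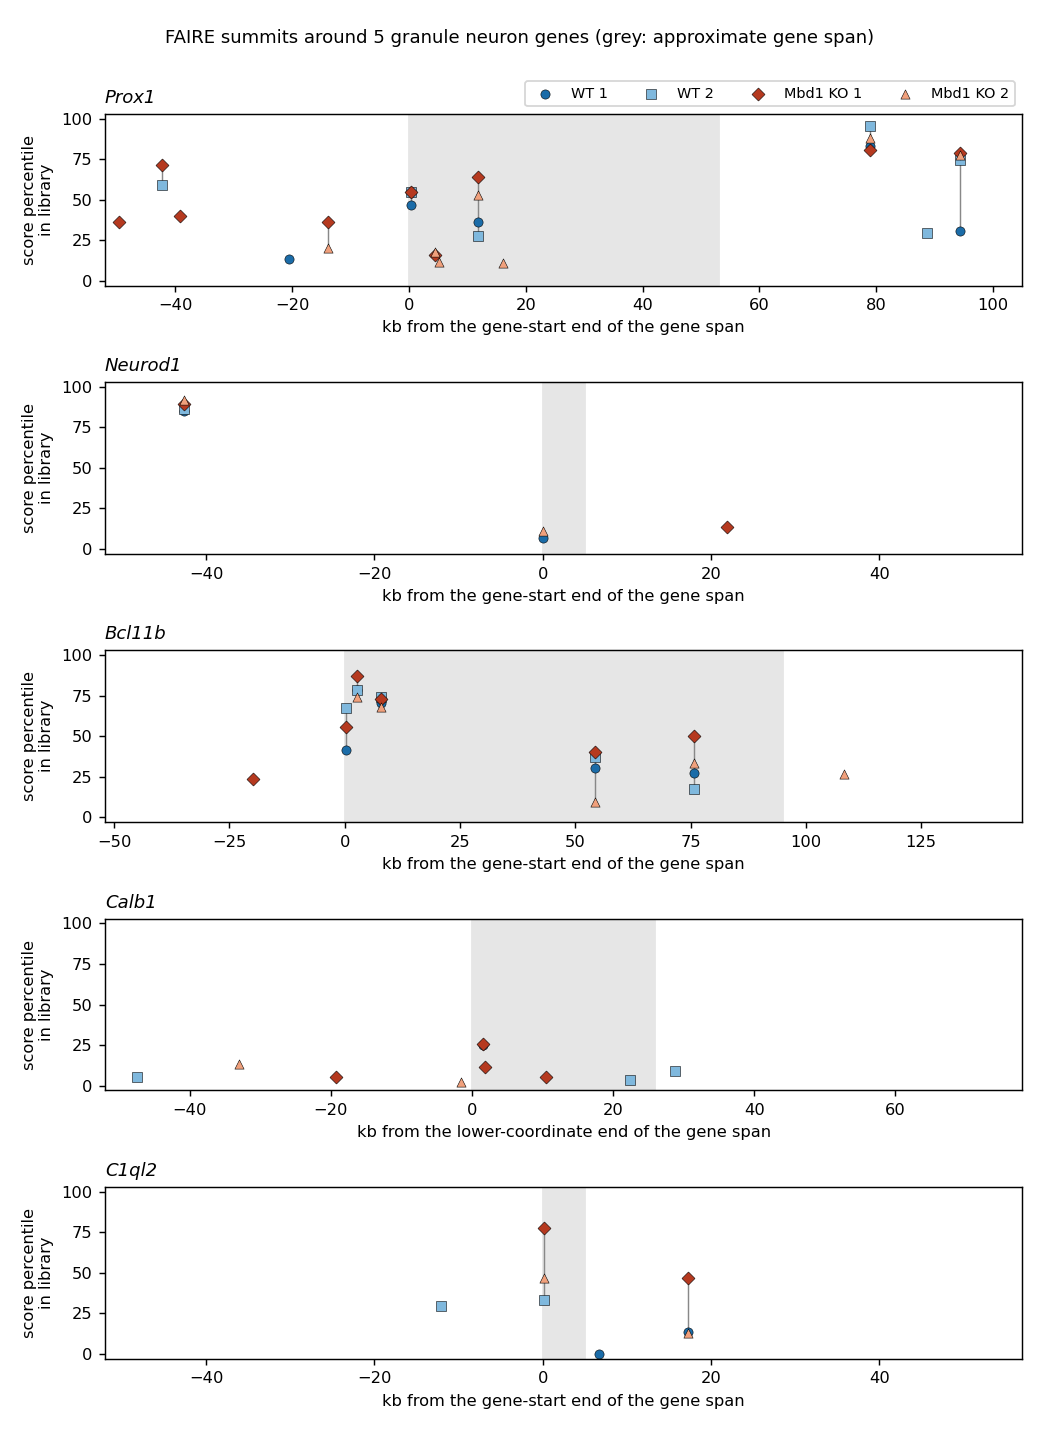
Regions at the 5 loci. The x axis gives kb from the gene-start end of the gene span (lower-coordinate end for Calb1), the y axis the score percentile within each library, points are libraries and a grey line joins the libraries of 1 region. The grey area is the approximate gene span. All 4 libraries share regions at Prox1, Neurod1 and Bcl11b, whereas the summits at Calb1 all lie at percentile 25.5 or below.

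The Prox1 window had the most regions, 13, and all 4 libraries called 3 of them. The strongest lay past the end of the gene, 78.9 kb from its start (chromosome 1, 191916129 to 191916156). Its percentile was 83.2 in WT 1, 95.4 in WT 2, 80.9 in Mbd1 KO 1 and 88.1 in Mbd1 KO 2. It ranked high in every library, and the titled groups overlapped. A second region past the end, 94.4 kb from the start (191900603 to 191900683), was at 30.7 in WT 1, 74.4 in WT 2, 79.0 in Mbd1 KO 1 and 77.7 in Mbd1 KO 2. WT 1 stood far below the other 3 libraries there. The third lay inside the gene span, 11.8 kb from the start (191983190 to 191983244), with percentiles of 36.2, 27.5, 63.7 and 53.1 in the same order of libraries. Both Mbd1 KO libraries were above both WT libraries at that region.

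At the start of Prox1 itself, 322 to 376 bp inside the span (191994624 to 191994678), a summit was called in WT 1, WT 2 and Mbd1 KO 1, at percentiles 46.4, 54.9 and 54.4. Mbd1 KO 2 had no summit there, and its nearest one was 3984 bp away. That nearest summit belonged to 1 of 2 Prox1 regions called only in the pair titled Mbd1 KO. It lay 4.41 kb inside the span (191990540 to 191990640), with percentiles of 15.7 in Mbd1 KO 1 and 17.9 in Mbd1 KO 2, and the nearest WT summit was 3984 bp away in WT 1 and 4038 bp away in WT 2. The other lay 13.9 kb before the start (192008828 to 192008874), at 36.5 and 20.0. The first was weak in both libraries. The highest percentile of the second, 36.5, was near the genome median of 35.1 for regions called in exactly 2 libraries. A region 42.3 kb before the start (192037264 to 192037312) was called in WT 2 at 58.8 and in Mbd1 KO 1 at 71.5 only, the 2 libraries whose labels agree and differ in genotype. The 6 Prox1 regions of a single library lay between percentiles 11.2 and 40.2.

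The Neurod1 window held 3 regions, and its strong one was far from the gene. That region lay 42.6 kb before the start (chromosome 2, 79339612 to 79339624) and was called in all 4 libraries within 13 bp. Its percentile was 84.9 in WT 1, 86.5 in WT 2, 89.7 in Mbd1 KO 1 and 91.9 in Mbd1 KO 2. Its lowest percentile was the highest among the members called in all 4 libraries, and both Mbd1 KO libraries were above both WT libraries. In the RefSeq order of protein-coding genes the neighbour on that side is Itprid2, which lies over 50 kb from Neurod1 on GRCm38, and the neighbour past the end is Cerkl, which lies closer than that. The region at the Neurod1 start, 20 to 73 bp inside the span (79296927 to 79296980), was called only in WT 1, at 6.71, and in Mbd1 KO 2, at 11.3. It was among the weakest summits of both lists. The third region was a single summit of Mbd1 KO 1 at 13.8.

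Bcl11b had the most shared regions. Of its 7 regions, 4 were called in all 4 libraries, and all 4 lay inside the gene span. The strongest was 2.63 kb from the start (chromosome 12, 109242359 to 109242387), at 78.4 in WT 1, 78.6 in WT 2, 87.1 in Mbd1 KO 1 and 74.0 in Mbd1 KO 2. The next was 7.86 kb from the start (109237123 to 109237165), at 70.3, 74.4, 72.9 and 68.2. At both, the titled groups overlapped. The other 2 shared regions were weaker and lay deep in the gene. The one 54.4 kb from the start (109190568 to 109190651) was at 30.7, 37.1, 40.2 and 9.64 in the same order, with Mbd1 KO 2 far below the others. The one 75.7 kb from the start (109169295 to 109169362) was at 27.1, 17.2, 50.2 and 33.8, with both Mbd1 KO libraries above both WT libraries. A region at the start, 329 to 393 bp inside the span (109244607 to 109244671), was called in WT 1 at 41.2, in WT 2 at 67.5 and in Mbd1 KO 1 at 55.6. As at the Prox1 start, Mbd1 KO 2 lacked it, and its nearest summit was 2227 bp away. The remaining 2 regions were single summits of Mbd1 KO 1 at 23.4 and of Mbd1 KO 2 at 27.0.

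Calb1 had many weak summits and none that recurred widely. Its window held 9 regions, of which 0 were called in 3 or 4 libraries and 8 in a single library. Those 8 lay between percentiles 2.52 and 13.1. The only region of 2 libraries lay inside the span, 1.62 kb from its lower-coordinate end (chromosome 4, 15809611 to 15809625), and was called in WT 1 at 25.1 and in Mbd1 KO 1 at 25.5. The genotype field calls both of these libraries Mbd1 KO. A further Mbd1 KO 1 summit lay 255 bp from the WT 1 summit of that region, just past the joining distance. Decr1 lies closer than 50 kb on the higher-coordinate side in the RefSeq order, so that flank of the window is shared with another gene.

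C1ql2 also had no region of all 4 libraries. Of its 4 regions, 2 were called in 3 libraries. The one next to the gene-start end, 87 to 135 bp inside the span (chromosome 1, 122237087 to 122237135), was at 33.4 in WT 2, 77.9 in Mbd1 KO 1 and 46.5 in Mbd1 KO 2. WT 1 had no summit there, and its nearest one was 6501 bp away. The region 17.3 kb from the start, past the gene end (122254256 to 122254320), was at 13.4 in WT 1, 47.0 in Mbd1 KO 1 and 13.1 in Mbd1 KO 2 and was not called in WT 2. Mbd1 KO 1 had the highest percentile at both. The other 2 regions were single summits, of WT 2 at 29.5 and of WT 1 at 0.101, the latter near the bottom of its list.

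Regions 393 bp or less from the gene-start end of the span were thus called at 4 loci, and none of these was called in all 4 libraries. Calb1 could not be assessed, since its strand was not known. That distance is smaller than the uncertainty of the start at Neurod1, Bcl11b and C1ql2. A Bcl11b region 2.63 kb from the start was called in all 4 libraries. The Prox1 and Bcl11b starts lacked a call in Mbd1 KO 2, the C1ql2 start in WT 1, and the Neurod1 start in WT 2 and Mbd1 KO 1. This comparison was picked with the values in view. Over the genome, 10% of regions were called in exactly 3 libraries, and of those 14.5% lacked Mbd1 KO 2, 43% WT 1, 26.9% WT 2 and 15.6% Mbd1 KO 1. Among the 4 members called in exactly 3 libraries, 2 lacked Mbd1 KO 2, 1 lacked WT 1 and 1 lacked WT 2. With 4 regions such shares are too coarse to set against the genome. The calls at the starts followed neither the titles nor the genotype field.

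**Figure D2:**
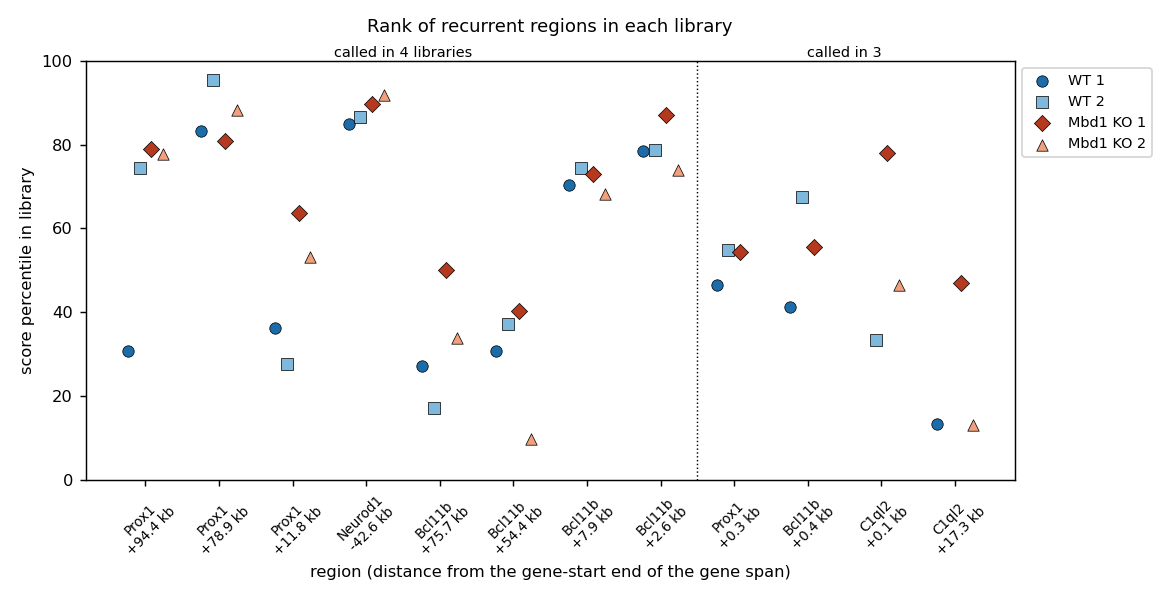
Score percentile (y axis) of the 12 regions called in 4 or 3 libraries, with the region named by its gene and its distance in kb from the gene-start end of the gene span (x axis); each point is 1 library. The Neurod1 region at 42.6 kb before the start lies between 84.9 and 91.9 in the 4 libraries, and WT 1 is alone at 30.7 at the Prox1 region 94.4 kb from the start.

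Recurrence differed between the 5 loci, and over all of them most regions were called in a single library. All 4 libraries called 8 of the 36 regions (22.2%), 3 libraries called 4 (11.1%), 2 called 5 (13.9%) and 1 called 19 (52.8%). The genome-wide shares were 32.1%, 10%, 13.8% and 44.1%. All libraries shared 4 of 7 regions at Bcl11b, 1 of 3 at Neurod1, 3 of 13 at Prox1, 0 of 9 at Calb1 and 0 of 4 at C1ql2. The lowest of the 4 percentiles had a median of 49.5 over the 8 shared members (from 9.64 to 84.9), against a median of 56.8 over all 26592 shared regions (quartiles 36.3 and 77.8). The single-library members had a median percentile of 11.7, against 16.7 over the genome. These shares are descriptions and were not tested, since regions are not replicates.

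**Figure D3:**
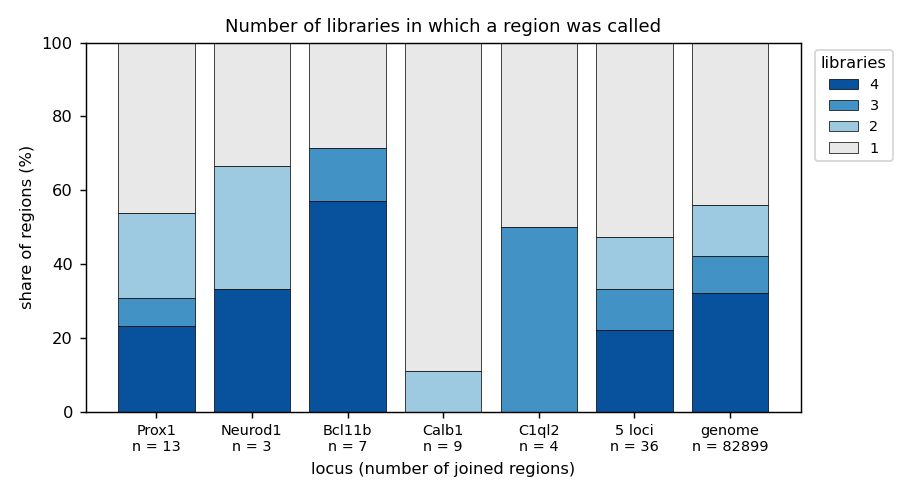
Share of regions (y axis, %) called in 4, 3, 2 or 1 libraries at each locus, over the 5 loci and over the genome (x axis, with the number of regions). Bcl11b has 4 of 7 regions in all 4 libraries and Calb1 0 of 9, against 32.1% over the genome.

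Regions were denser at Prox1 and Calb1 than in most of the genome. Genome windows of the same length as the Prox1 window held a median of 4 regions (quartiles 2 and 7), against 13 there, and those of the Calb1 length a median of 4 (quartiles 2 and 6), against 9. Bcl11b had 7 regions against a median of 6 (quartiles 3 and 9), Neurod1 3 and C1ql2 4 against a median of 3 (quartiles 1 and 5). For regions of all 4 libraries the median was 1 at each window length, with upper quartiles of 2, and of 3 at the Bcl11b length. Prox1 with 3 and Bcl11b with 4 were above those quartiles, and Calb1 and C1ql2, with 0 each, were at the lower one. The gene spans held 16 regions in 184 kb and the flanks 20 in 500 kb, which is 8.70 and 4 regions per 100 kb. Of the regions of all 4 libraries, 5 lay in a span and 3 in a flank.

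By title, the Mbd1 KO libraries had more summits at Prox1, and the other loci differed by 1 summit or less on average. This comparison asked whether loss of Mbd1 goes with a change in open sites at the granule neuron genes. Prox1 had 5 summits in WT 1 and 6 in WT 2, and 9 in Mbd1 KO 1 and 7 in Mbd1 KO 2. The titled groups did not overlap, with means of 5.5 ± 0.707 and 8 ± 1.41 (SD, n = 2 each, two-sided exact permutation p = 0.33, the lowest p possible with 2 against 2). How often genome windows of the Prox1 length separate the titled groups in this way was not counted, so Prox1 cannot be said to stand out. Calb1 had 1 and 3 summits in the WT libraries against 4 and 2 in the Mbd1 KO libraries (exact permutation p = 0.667). Bcl11b had 5 and 5 against 6 and 5, Neurod1 2 and 1 against 2 and 2, and C1ql2 2 in every library (exact permutation p = 1 for each).

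The Mbd1 KO lists were the 2 longest, and the 2 ways of allowing for list length gave different answers at Prox1. Per 10000 summits of the list, Prox1 had 1.31 in WT 1 and 1.29 in WT 2. It had 1.60 in Mbd1 KO 1 and 1.41 in Mbd1 KO 2, so the titled groups still did not overlap (difference 0.204, exact permutation p = 0.33). The titled groups did not overlap on this measure at Bcl11b and C1ql2 either, with Mbd1 KO lower (differences −0.156 and −0.0978, exact permutation p = 0.33 for each). C1ql2 had 2 summits in every library, so only list length separated the groups there. When every list was shortened to its strongest 38142 summits, the Prox1 difference was 0. With only the summits scoring 10 or more kept, it was 0.5 (exact permutation p = 1). Over the 5 loci the libraries had 15, 17, 23 and 18 summits, which is 3.93, 3.64, 4.08 and 3.62 per 10000 summits of the list. Grouped by the genotype field, Prox1 averaged 7 summits for Mbd1 KO and 6.5 for WT (exact permutation p = 1).

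**Figure D4:**
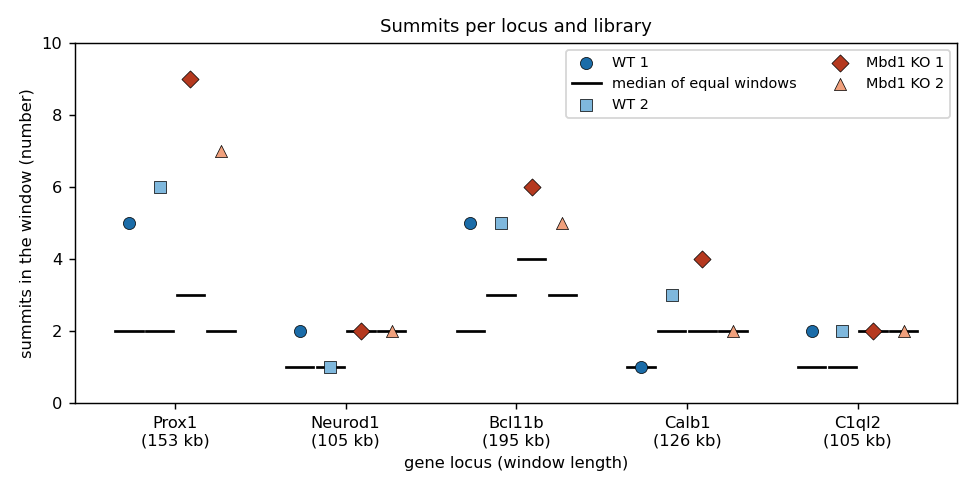
Number of summits (y axis) in the window of each gene (x axis, with the window length) in each library; black bars mark the median of that library over genome windows of the same length. At Prox1 the Mbd1 KO libraries have 9 and 7 summits and the WT libraries 5 and 6.

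Regions called in both titled Mbd1 KO libraries and in neither WT library numbered 2 of 36, the 2 at Prox1 described above. Over the genome 4.07% of regions had that pattern, so the share is near the background. The opposite pattern was found in 0 of the 36 regions, against 0.975%. By the genotype field, 1 region, at Calb1, was specific to the Mbd1 KO pair (1.67% over the genome) and 0 to the WT pair (2.63%).

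Among the 8 regions of all 4 libraries, the percentile was higher in both titled Mbd1 KO libraries than in both WT libraries at 4, and lower at 0. Over all such regions of the genome these patterns were found at 33.1% and 4.76%. The 4 were the Prox1 regions 11.8 and 94.4 kb from the start, the Neurod1 region 42.6 kb before it and the Bcl11b region 75.7 kb from it. At the Prox1 region inside the gene the Mbd1 KO libraries averaged 58.4 ± 7.53 and the WT libraries 31.9 ± 6.15, a difference of 26.5 percentile points (SD, n = 2 each, exact permutation p = 0.33). At the Prox1 region past the gene the difference was 25.8 points (78.3 ± 0.93 against 52.6 ± 30.9, exact permutation p = 0.33), and 3.94 without WT 1. At the Bcl11b region it was 19.8 points (42.0 ± 11.6 against 22.2 ± 7.04) and at the Neurod1 region 5.09 points (90.8 ± 1.56 against 85.7 ± 1.16), each with an exact permutation p of 0.33. Without Mbd1 KO 1 the Bcl11b difference was 11.6 points.

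Percentiles depend on the length of a list, and the Mbd1 KO lists were the longer ones. Ranked only among the 26592 regions of all 4 libraries, which was added once the data had been seen, 2 members were higher in both Mbd1 KO libraries (16.2% over the genome) and 2 were lower in both (16.1%). The higher ones were the 2 Prox1 regions, with differences of 12.8 points inside the gene and 21.9 points past it. The Bcl11b region 75.7 kb from the start and the Neurod1 region no longer separated the titled groups, with differences of 3.08 and 4.11 points (exact permutation p = 0.667 for each). The lower ones were the Bcl11b regions 7.86 and 54.4 kb from the start, with differences of −13.5 and −9.28 points. By the genotype field, 0 members were higher in both Mbd1 KO libraries (13.1% over the genome) and 1 was lower (16.6%), the Prox1 region 78.9 kb from the start, at 82.1 ± 1.68 against 91.8 ± 5.10. No member passed a test, and none could with 2 libraries against 2.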

How the data were processed

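Single-end FAIRE-seq libraries of mouse dentate gyrus were aligned and called with Bowtie, SAMtools and MACS2 on mm9, per the submitters' processing notes, which give no versions. The authors deposited 1 summit list per library, not pooled, with a score taken as −log10 p or q because every value exceeds 1.30, the −log10 of 0.05. The sources used here name no threshold, read filter or input control. Scores were used only as ranks within a list or as a filter.

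Windows came from the rule for the 5 genes, and summits within 250 bp were joined over the whole genome. In each locus, up to 4 regions of all 4 libraries with the highest lowest percentile, and every region specific to a titled group, were to be named; this took in all 8 shared members. Genome windows were laid end to end on the numbered chromosomes and X. Titled and genotype-field groups were compared with exact two-sided permutation tests, whose smallest p is 0.33. The genes, lists and rules were chosen with earlier results of these data known. Other granule neuron, pyramidal and glial marker loci were not analysed here, since no mm9 annotation was used. Joining and counting were tested on simulated sites spaced far wider than 250 bp, so summits near the joining distance were not covered. Depth is unknown, so no counting interval was computed. The software was scipy 1.17.1, pandas 2.3.3 and numpy 2.4.6 under Python 3.11.15.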

Additional observations from a re-analysis of the deposited data

How the results depend on the processing

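Differences are Mbd1 KO minus WT in mean summits per locus. They were 2.5 at Prox1, 0.5 at Neurod1 and Bcl11b, 1 at Calb1 and 0 at C1ql2. At a score of at least 10 they were 0.5 at Prox1, 0 at Neurod1 and Calb1, −0.5 at Bcl11b and 0.5 at C1ql2. In lists of equal length they were 0 at Prox1 and Bcl11b and −0.5 at Neurod1, Calb1 and C1ql2. In the gene spans alone they were 1.5 at Prox1, 0 at Neurod1, −0.5 at Bcl11b and 0.5 at Calb1 and C1ql2. By the genotype field they were 0.5 at Prox1, Neurod1 and Bcl11b and 0 at Calb1 and C1ql2. Per 10000 summits of the list they were 0.204 at Prox1, 0.00933 at Neurod1, −0.156 at Bcl11b, 0.103 at Calb1 and −0.0978 at C1ql2. Leaving out 1 library gave 1.5 (without Mbd1 KO 1) to 3.5 at Prox1, 0 (without WT 2) to 1 at Neurod1, 0 (without Mbd1 KO 1) to 1 at Bcl11b, 0 (without WT 1 or Mbd1 KO 1) to 2 at Calb1, and 0 at C1ql2.

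Regions of every library numbered 4 (40%) at a score of at least 10 and 5 in the gene spans, and ran from 8 to 10 with 1 library left out. Regions specific to the Mbd1 KO pair numbered 1 at a score of at least 10 and 0 at equal length. They numbered 1 in the spans and 1 by the genotype field. Those specific to the WT pair numbered 1 at a score of at least 10. With 1 library left out, specific meant called in every remaining library of a group and in none of the other group. A group reduced to 1 library thus needed a call in that library only. So counted, the Mbd1 KO regions ran from 3 (without either WT library) to 9 (without Mbd1 KO 2). The WT regions ran from 0 to 5 (without WT 1). Shared regions higher in both Mbd1 KO libraries numbered 1 at a score of at least 10, 2 at equal length, 2 in the spans, 0 by the genotype field and 2 when ranked among shared regions; lower ones numbered 1, 1, 0, 1 and 2. The cause of these changes was not tested. Some of the settings leave fewer summits or libraries.

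Of the percentile differences, the Bcl11b region 2.63 kb from the start turned from 2.03 to −2.61 at equal length, −3.57 among shared regions and −4.52 without Mbd1 KO 1, and was 8.58 without Mbd1 KO 2. By the genotype field the difference was −21.2 at the Prox1 region 94.4 kb from the start, −1.93 at the Neurod1 region, and 12.1 and 0.305 at the Bcl11b regions 54.4 and 7.86 kb from the start. With 1 library left out, it ran from −10.9 (without WT 1) to 1.26 (without WT 2) at the Prox1 region 78.9 kb from the start. At the Bcl11b region 7.86 kb from the start it ran from −4.13 (without Mbd1 KO 1) to 0.539 (without Mbd1 KO 2), with 0.234 when WT 2 was left out. At the Bcl11b region 54.4 kb from the start it ran from −24.3 (without Mbd1 KO 1) to 6.26 (without Mbd1 KO 2). Joining at 100 or 1000 bp turned no percentile difference and moved none of the region counts by over 1.5 times. The differences in summits per locus do not depend on the joining distance. With the replicate block, the Prox1 difference in summits stayed 2.5 (4 in pair 1 and 1 in pair 2, exact sign-flip permutation p = 0.5, the smallest that 2 pairs allow). Same-numbered libraries deviated from their group means with a correlation of 0.0129 over shared regions, and what a replicate number stands for is not in the labels.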
